A study of Mus musculus with 6 samples.

Results

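Transcripts of macrophages and other immune cells were examined in RNA from mouse granulosa cells. They were defined as a given list of 32 genes, matched by symbol to the 49315 genes of the count files. All 32 were found, all had at least 1 count in every library, and all 32 passed the filter on low counts that left 18250 genes for testing. The list names genes and sets no limit on a measured value, but it was chosen with earlier results of these data known.

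Granulosa cells, the somatic cells that surround the oocyte in the ovarian follicle, were isolated fresh from ovaries of C57BL/6J mice aged 8 to 9 weeks. There were 3 libraries from wild-type mice (WT) and 3 from mice with a granulosa cell-specific knockout of Jmjd3 (KO), and no other allele, agent or treatment is named in the labels. Jmjd3, also called Kdm6b, encodes an enzyme that strips methyl groups from residue K27 of histone H3, a mark of silenced genes. The Cre driver, the exons removed, the cycle stage and any sorting of the cells are not stated in the labels. Whether each library came from its own animals is not stated, so p-values here rest on library-to-library spread, which may be technical. Gene counts summed to between 42379018 and 49901493 per library. Kdm6b RNA stood at 66.2 to 72.8 CPM (counts scaled to a library size of 1e6) in WT, with KO replicates 1 to 3 at 64.7, 68.6 and 112 CPM. Counts over the whole gene do not check a deletion of a few exons, so the genotype rests on the labels.

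Macrophages are the main resident immune cells of the ovary. They lie in the stroma, the theca and the corpus luteum, outside the basement membrane that encloses the granulosa cells, and they clear dying cells of atretic follicles and regressing corpora lutea. They depend on the growth factor CSF1 and its receptor CSF1R, take up debris through surface receptors, make the complement protein C1q, and present antigen on MHC class II molecules. T cells, B cells, natural killer (NK) cells and neutrophils also enter the ovary, neutrophils mainly around ovulation. The labelled cell type was checked first. The granulosa cell genes Fshr, Foxl2, Amh and Inha stood at 123, 112, 901 and 6833 CPM in WT, whereas the leukocyte gene Ptprc stood at 6.63 CPM. Other immune genes were not so low. Cd74 and Lyz2 stood at 126 and 98.6 CPM in WT, within reach of Fshr and Foxl2, and the 32 genes summed to 631 CPM. These CPM take no account of gene length, which was 18313 bases for Ptprc and 1410 bases for Cd74.

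No immune cell gene on the list passed the test of KO against WT. With edgeR (quasi-likelihood test, Benjamini-Hochberg adjustment over all 18250 genes), 0 of the 32 passed an adjusted p of 0.05. The background was low, with 0.219% of all genes tested past that threshold (40 genes; 0.126% higher and 0.0932% lower in KO). DESeq2 and limma-voom with sample quality weights also called 0 of the 32, against 1.16% and 0.466% of the genes each tested. At an unadjusted p under 0.05 there were 2 (Ms4a1 and S100a9), against 9.16% of all genes tested. The median log2 fold change, KO minus WT, was 0.14 over the 32 genes and 0.00 over all genes tested, and 24 of the 32 were positive.

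The 3 KO libraries, by contrast, stood far apart from each other. Summed over the 32 genes, immune transcripts amounted to 549, 635 and 710 CPM in WT replicates 1 to 3 and to 869, 651 and 440.3 CPM in KO replicates 1 to 3. KO replicate 1 was thus the highest and KO replicate 3 the lowest of the 6 libraries, with the WT libraries and KO replicate 2 between them. The group means were 631 ± 80.3 and 654 ± 214 CPM (SD, n = 3), a ratio of 1.03 after TMM scaling. Scaled to raw library totals instead, the ratio was 0.994, so its direction depended on the scaling. KO replicate 1 exceeded KO replicate 3 in each of the 32 genes, by a median of 1.89-fold. KO replicate 1 was the highest library for 29 of the 32 genes (22.2% of all genes tested) and KO replicate 3 the lowest for 26 (21.7%), with both true of 23 (8.07%). The SD was larger in KO than in WT for 31 of the 32, against 58.5% of all genes tested. In bulk RNA, fewer cells of a type and less RNA per cell cannot be told apart.

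**Figure D1:**
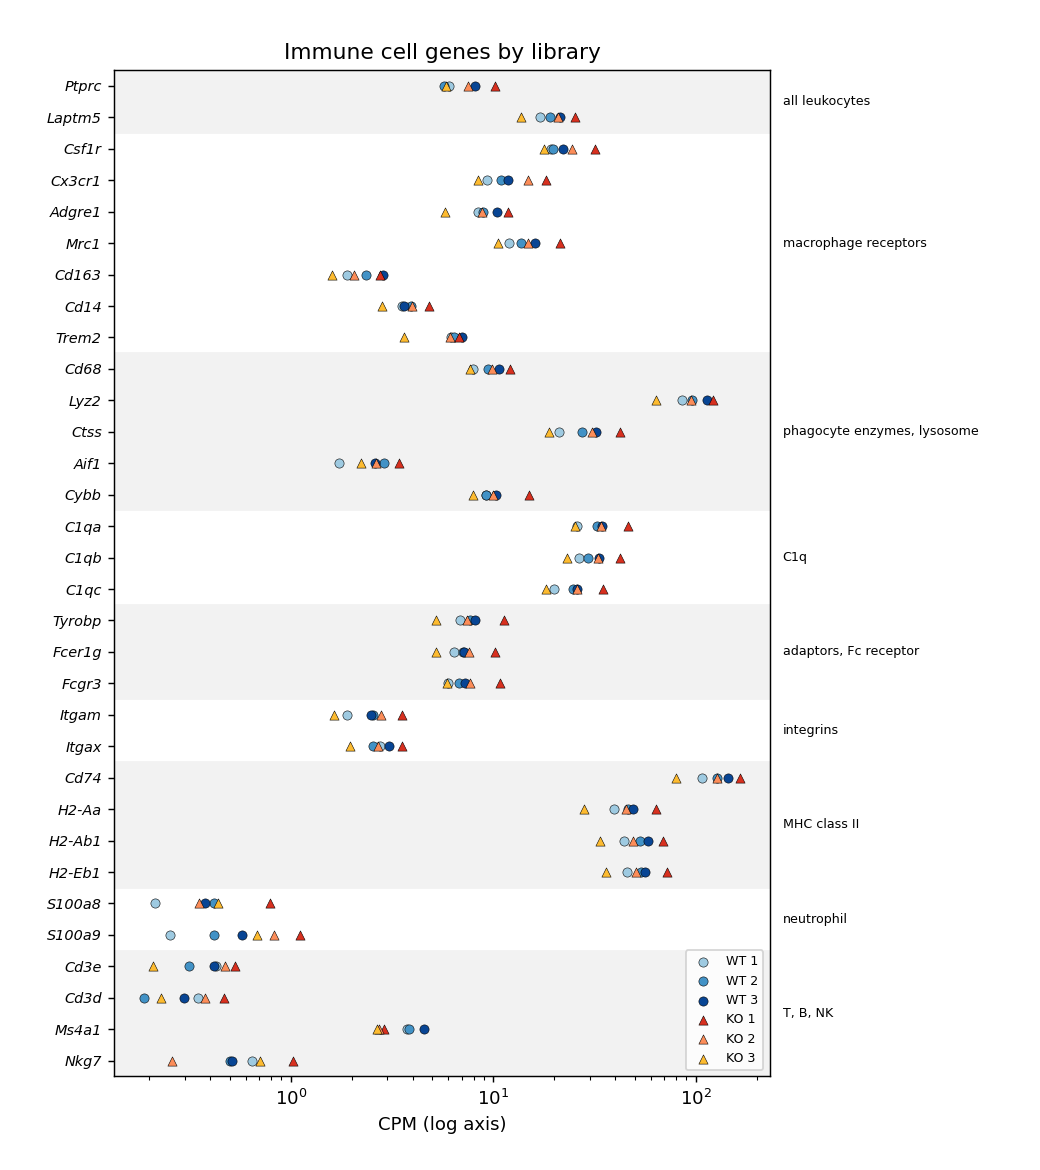
Level of each immune cell gene in each library, in CPM on a log axis; circles are WT libraries, triangles KO libraries, and shading separates the roles. In most rows KO replicate 1 (red) lies at the right and KO replicate 3 (yellow) at the left, with Ms4a1 and S100a9 the 2 rows in which the WT and KO points do not overlap.

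Levels of different genes were compared per length (FPKM), as means over the 6 libraries. The most abundant was Cd74 at 88.9 FPKM, followed by Lyz2 at 75.9, H2-Eb1 at 44.3, C1qa at 31.8, H2-Ab1 at 31.4, C1qb at 28.8, H2-Aa at 24.3 and Ctss at 21.2 FPKM. Antigen presentation, lysozyme, C1q and cathepsin S transcripts therefore led the order. At the low end stood the T cell genes Cd3d and Cd3e at 0.175 and 0.0969 FPKM. Of the 31 neighbouring pairs in this order, 30 overlapped in their ranges over the libraries, so most neighbours were not separated. Ptprc ranked low per length (0.395 FPKM), and its gene model in the files is long, at 18313 bases.

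In what follows, libraries are in the order of replicates 1 to 3, paired means are WT then KO with their SD (n = 3), and values with an SE are log2 fold changes, KO minus WT. Among genes of all leukocytes, Ptprc encodes CD45, the tyrosine phosphatase on the surface of white blood cells. It stood at 6.05, 5.69 and 8.15 CPM in WT, against 10.2, 7.49 and 5.84 CPM in the KO libraries 1 to 3. The groups overlapped, with a log2 fold change of 0.24 ± 0.22 (SE; 95% interval -0.26 to 0.75; adjusted p = 0.763, edgeR). Laptm5, a lysosomal membrane protein of blood cells, stood at 17.0, 19.1 and 21.4 CPM (WT) and 25.5, 20.98 and 13.8 CPM (KO). Its KO libraries bracketed the WT range on both sides (0.07 ± 0.22 SE, adjusted p = 0.948).

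Of the 7 listed macrophage surface receptors, which leave out the Fc receptor Fcgr3, Cx3cr1 and Csf1r had the largest positive values. Csf1r, the CSF1 receptor on which macrophage survival depends, stood at 19.4, 19.7 and 22.1 CPM among WT and 31.7, 24.6 and 17.7 CPM among KO libraries. KO replicates 1 and 2 were above every WT library and KO replicate 3 below them (0.27 ± 0.20 SE, 95% confidence interval -0.20 to 0.75, adjusted p = 0.714, edgeR). Cx3cr1, the fractalkine receptor of monocytes and tissue macrophages, showed the same arrangement. It stood at 9.28, 10.9 and 11.9 CPM in WT, against 18.2, 14.9 and 8.43 CPM in KO (0.37 ± 0.28 SE, adjusted p = 0.717). In the files Csf1r shares 871 of its 4885 exon bases with Hmgxb3 on the opposite strand, and no source used here gives the strand setting of the counting.

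These were the 2 genes of the list that passed when KO replicate 3 was left out. Without that library the log2 fold change was 0.46 ± 0.11 for Csf1r (adjusted p = 0.036, edgeR) and 0.63 ± 0.13 for Cx3cr1 (adjusted p = 0.0127). Both were higher, while 1.74% of all genes tested were called higher and 2.26% in either direction. The median over the 32 was then 0.33, with 30 positive. Without KO replicate 1 the median was -0.13, 7 were positive and 0 were called (2 at an unadjusted p under 0.05). The direction of the list as a whole thus turned on which KO library was left out. In the other alternative fits 0 of the 32 were called, with 2 at an unadjusted p under 0.05 except under the 1 CPM filter (1 of 27 tested). The share of all genes called was 0.214% with RLE scaling, 0.17% with upper-quartile scaling, 0.617% with no filter, 0.146% at a mean of at least 1 CPM and 0.0822% with a replicate block. It was 0.0913%, 0.0428% and 0.0485% without WT replicates 1 to 3, and 0.139% and 0.193% without KO replicates 1 and 2.

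With all libraries, Adgre1, Mrc1, Cd163 and Cd14 had smaller differences than Csf1r and Cx3cr1. Adgre1, an adhesion receptor used to mark mouse macrophages, stood at 8.42, 8.92 and 10.4 CPM for WT and 11.8, 8.85 and 5.81 CPM for KO (-0.07 ± 0.24 SE). Mrc1, the mannose receptor of resident macrophages, stood at 12.02, 13.7 and 16.2 CPM among WT and 21.5, 14.8 and 10.6 CPM among KO libraries (0.16 ± 0.26 SE). In both genes KO replicate 1 was above and KO replicate 3 below each WT library. The haemoglobin scavenger receptor gene Cd163 was near the low end, at 2.37 ± 0.475 CPM for WT and 2.14 ± 0.592 CPM for KO (n = 3). Cd14, the lipopolysaccharide co-receptor, stood at 3.70 ± 0.217 and 3.87 ± 1.001 CPM. Adjusted p for these 4 genes lay between 0.877 and 0.951 (edgeR).

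Trem2, a lipid-sensing receptor of phagocytes, had the most negative value among the listed macrophage receptors. Of the further macrophage genes, Timd4 (-0.57), Folr2 (-0.53) and Slc11a1 (-0.34) had more negative values, and none of them passed. Trem2 stood at 6.17, 6.38 and 6.98 CPM in WT, at 6.80 and 6.15 CPM in KO replicates 1 and 2, and at 3.61 CPM in KO replicate 3. KO replicate 2 was just under the WT range and KO replicate 3 far below it. The difference did not pass the test (-0.24 ± 0.22 SE, adjusted p = 0.761, edgeR) and was -0.01 without KO replicate 3. Trem2 and Cd163 were the 2 genes of macrophages and antigen presentation for which KO replicate 1 was not the highest library, since WT replicate 3 exceeded it.

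**Figure D2:**
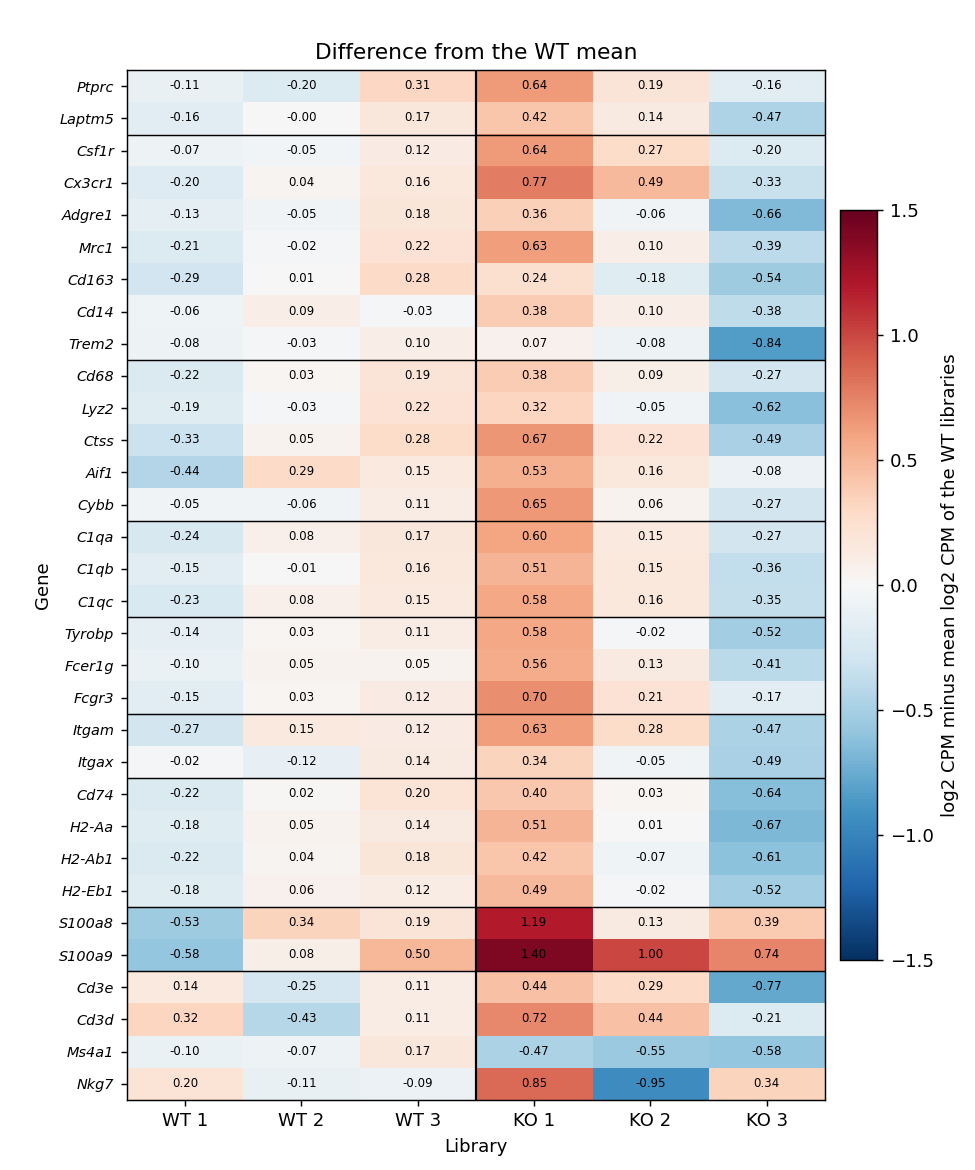
log2 CPM of each gene in each library minus its mean over the WT libraries (red above, blue below; values printed in the cells; horizontal lines separate roles and the vertical line the groups). The column of KO replicate 1 is positive except for Ms4a1 (-0.47), and that of KO replicate 3 is negative except for S100a8, S100a9 and Nkg7.

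Among enzymes and cytosolic proteins of phagocytes, Lyz2, which encodes lysozyme M, stood at 86.1, 95.8 and 114 CPM in WT, against 122, 94.7 and 63.5 CPM in KO. The groups overlapped (-0.08 ± 0.25 SE, adjusted p = 0.95, edgeR). Its close copy Lyz1 was at no more than 0.315 CPM, and no source used here says how reads matching both were counted. Ctss, the lysosomal protease that trims the invariant chain of MHC class II, stood at 21.2, 27.5 and 32.2 CPM for WT and 42.2, 30.8 and 18.9 CPM for KO (0.18 ± 0.33 SE). Cd68, a lysosomal glycoprotein, stood at 9.37 ± 1.34 CPM (WT) and 9.90 ± 2.20 CPM (KO). Cybb, the catalytic subunit of the phagocyte NADPH oxidase, stood at 9.62 ± 0.637 and 10.999 ± 3.68 CPM, and KO replicate 1 held 15.1 CPM. Aif1, the calcium-binding protein also called IBA1, stood at 2.42 ± 0.608 and 2.76 ± 0.616 CPM. Adjusted p for these 5 genes lay between 0.815 and 0.95 (edgeR).

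C1qa, C1qb and C1qc encode the A, B and C chains that assemble into C1q, the protein that starts the classical complement cascade and tags debris for uptake. They lie side by side on chromosome 4 between 136880129 and 136898803 (GRCm38, minus strand), a stretch of 18675 bases. C1qa stood at 25.97, 32.4 and 34.5 CPM among WT and 46.5, 34.0 and 25.4 CPM among KO libraries (0.19 ± 0.23 SE, adjusted p = 0.838, edgeR). C1qb stood at 29.8 ± 3.25 CPM for WT and 32.8 ± 9.56 CPM for KO (0.14 ± 0.22 SE). C1qc stood at 23.5 ± 3.15 and 26.4 ± 8.29 CPM (0.17 ± 0.24 SE). All 3 were highest in KO replicate 1 and lowest in KO replicate 3. Their proportions differed much less between libraries than their levels. Per length, C1qa was 1.018 to 1.154 times C1qb over the 6 libraries, and C1qc was 0.421 to 0.471 times C1qb.

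The signalling adaptors Tyrobp and Fcer1g pass on the signal of receptors that lack a signalling tail of their own, among them TREM2 and Fc receptors. Tyrobp stood at 6.85, 7.68 and 8.17 CPM in WT, against 11.3, 7.44 and 5.23 CPM in KO (0.08 ± 0.26 SE). Fcer1g, the common Fc receptor gamma chain, stood at 6.42, 7.14 and 7.16 CPM for WT and 10.2, 7.56 and 5.19 CPM for KO (0.15 ± 0.22 SE). Both had KO replicate 1 above and KO replicate 3 below all WT libraries. Fcgr3, a low-affinity receptor for IgG, stood at 6.69 ± 0.642 CPM for WT and 8.17 ± 2.498 CPM for KO (0.29 ± 0.21 SE, adjusted p = 0.705, edgeR). Fc receptor genes resemble each other in sequence, so its value is uncertain. Of the integrin alpha chains, Itgam (CD11b) stood at 2.31 ± 0.365 and 2.66 ± 0.966 CPM, and Itgax (CD11c), typical of dendritic cells and some macrophages, at 2.80 ± 0.258 and 2.73 ± 0.785 CPM. Itgam shares 3450 of its 5024 exon bases with the predicted gene Gm49368 on the same strand, so its level is uncertain.

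MHC class II genes were the most abundant group, and their group means in KO and WT were close. H2-Aa, H2-Ab1 and H2-Eb1 encode chains of the class II molecules that present peptides to T cells, and Cd74 encodes the invariant chain that guards the peptide groove until loading. Cd74 stood at 107, 127 and 144 CPM among WT and 165, 128 and 80.3 CPM among KO libraries (-0.02 ± 0.28 SE, 95% confidence interval -0.73 to 0.69, adjusted p = 0.987, edgeR). H2-Aa stood at 39.6, 46.5 and 49.4 CPM in WT, against 63.9, 45.3 and 28.1 CPM in KO. H2-Ab1 stood at 52.0 ± 7.12 CPM (WT) and 50.7 ± 17.6 CPM (KO). H2-Eb1 stood at 51.8 ± 5.48 and 53.1 ± 18.4 CPM. In each of the 4 genes KO replicate 1 was above and KO replicate 3 below the whole WT range, and the 4 log2 fold changes lay between -0.04 and 0.04. The share of class II genes in the summed CPM of the list was 43.2%, 44.2% and 43.4% in WT and 42.7%, 41.9% and 40.4% in KO replicates 1 to 3. The shares did not overlap between groups and were not tested.

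Class II genes are known to share a promoter module that ends in an inverted CCAAT element, the Y box, bound by the factor NF-Y. The promoters of H2-Aa and H2-Eb1 (250 bases before to 50 after the gene start, RefSeq, GRCm38.p6) are shown with the 8 letters CTGATTGG in capitals. Whether the element had a part in the levels was not tested.

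H2-Aa, chr17:34287774-34288073, minus strand: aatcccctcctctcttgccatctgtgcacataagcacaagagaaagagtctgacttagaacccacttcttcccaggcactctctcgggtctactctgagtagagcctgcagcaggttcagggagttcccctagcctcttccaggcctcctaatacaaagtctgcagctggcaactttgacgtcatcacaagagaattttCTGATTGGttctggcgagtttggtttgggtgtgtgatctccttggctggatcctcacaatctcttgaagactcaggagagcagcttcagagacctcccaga

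H2-Eb1, chr17:34305617-34305916, plus strand: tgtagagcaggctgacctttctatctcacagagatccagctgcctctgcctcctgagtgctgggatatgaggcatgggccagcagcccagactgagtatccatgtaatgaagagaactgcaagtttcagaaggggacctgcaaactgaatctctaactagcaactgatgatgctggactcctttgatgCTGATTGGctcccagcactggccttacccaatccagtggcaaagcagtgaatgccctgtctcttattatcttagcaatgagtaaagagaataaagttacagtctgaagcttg

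The element begins 51 bases before the gene start in H2-Aa and 62 bases before it in H2-Eb1. Of the 24 listed genes that have an entry in the promoter table, 2 hold CTGATTGG on either strand, these 2 class II genes, as do 4.7% of all 27025 genes in the table. H2-Ab1 and Cd74 have no entry. Myeloid genes are known to be driven by the transcription factor PU.1, encoded by Spi1, which binds purine-rich elements. The letters GAGGAAGT were found on either strand in 3 of the 24 (Ctss, C1qc and S100a8; 12.5%) and in 3.69% of all genes in the table. Spi1 itself stood at 3.09, 4.20 and 4.52 CPM (WT) and 5.29, 4.05 and 3.57 CPM (KO). Spi1 and S100a8 were highest in KO replicate 1 and lowest in WT replicate 1. Ctss and C1qc, an abundant protease and a complement gene, were highest in KO replicate 1 and lowest in KO replicate 3. These 2 are shown with the match on the reverse strand, ACTTCCTC, in capitals.

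Ctss, chr3:95526536-95526835, plus strand: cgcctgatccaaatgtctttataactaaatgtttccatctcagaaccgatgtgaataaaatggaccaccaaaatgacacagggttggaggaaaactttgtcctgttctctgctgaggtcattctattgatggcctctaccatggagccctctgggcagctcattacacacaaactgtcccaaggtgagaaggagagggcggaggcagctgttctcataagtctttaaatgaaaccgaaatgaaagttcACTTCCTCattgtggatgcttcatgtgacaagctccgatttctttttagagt

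C1qc, chr4:136892865-136893164, minus strand: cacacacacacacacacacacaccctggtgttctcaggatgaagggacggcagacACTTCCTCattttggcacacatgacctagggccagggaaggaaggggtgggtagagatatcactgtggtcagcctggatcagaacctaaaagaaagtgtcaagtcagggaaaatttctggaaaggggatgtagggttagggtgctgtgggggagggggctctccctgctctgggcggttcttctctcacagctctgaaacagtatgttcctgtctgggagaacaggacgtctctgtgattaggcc

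The match begins 2 bases before the gene start in Ctss and 195 bases before it in C1qc. A match of letters is a description and not a measured binding site.

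The neutrophil genes S100a8 and S100a9, whose products form calprotectin, were scarce and were the members with the largest positive values. Counts ranged from 11 to 52 per library. S100a9 (chromosome 3, 90692632 to 90695721, GRCm38) stood at 0.253, 0.420 and 0.575 CPM among WT and 1.11, 0.824 and 0.685 CPM among KO libraries. Each KO library was above each WT library, as in 7.68% of all genes tested. Its log2 fold change was 1.07 ± 0.33 (SE; 95% interval 0.32 to 1.82; unadjusted p = 0.0104), and it did not pass adjustment over all genes (adjusted p = 0.377, edgeR). S100a8 overlapped between groups, at 0.214, 0.420 and 0.377 CPM in WT and 0.789, 0.353 and 0.436 CPM in KO (0.65 ± 0.39 SE, adjusted p = 0.646). Neutrophil genes outside the list ranged widely. Ltf, which encodes lactoferrin, stood at 22.2, 1.74 and 2.30 CPM in WT, against 6.23, 2.40 and 2.22 CPM in KO, and the receptor gene Csf3r had 29 to 66 counts per library. Ly6g had at most 1 count in any library and Elane had 0, under the 3 counts taken as the limit of detection (0.0584 to 0.0706 CPM). Red blood cell genes also stood higher in KO libraries, with summed levels of 385 to 803 CPM in WT and 2268, 1345 and 834 CPM in KO. In edgeR 1 of the 8 tested was called higher, against 0.126% of all genes tested. Whether blood in the preparation had a part in the S100a9 values was not tested.

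Among lymphocyte genes, Ms4a1 had the most negative value of the list. It encodes CD20, a surface protein of B cells, and lies on chromosome 19 (11249675 to 11266241, GRCm38). It stood at 3.77, 3.84 and 4.54 CPM in WT, against 2.90, 2.73 and 2.68 CPM in KO. All KO libraries were below all WT libraries, as in 7.89% of all genes tested. The log2 fold change was -0.55 ± 0.15 (SE; 95% interval -0.89 to -0.21), the smallest p of the list (unadjusted p = 0.00501), but it did not pass adjustment (adjusted p = 0.304, edgeR). KO replicate 1 was at 1.08 times KO replicate 3, the smallest such ratio of the 32 genes.

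Other B cell genes did not share these values. Cd79a and Cd79b, the signalling chains of the B cell receptor, stood at 0.994 ± 0.139 and 0.815 ± 0.293 CPM (SD, n = 3) in WT. In KO replicates 1 to 3 Cd79a stood at 1.66, 1.34 and 0.872 CPM and Cd79b at 1.64, 0.848 and 0.727 CPM, the order of libraries seen in the macrophage genes. Of the 10 other B cell genes tested, 9 had a positive log2 fold change (median 0.32) and 0 passed.

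T cell and NK cell genes were near the lower limit of the data. Cd3e and Cd3d, subunits of the T cell receptor complex, had 9 to 25 counts per library. Cd3e stood at 0.386 ± 0.0623 CPM for WT and 0.404 ± 0.173 CPM for KO (0.05 ± 0.38 SE). Cd3d stood at 0.279 ± 0.0823 and 0.358 ± 0.121 CPM (0.35 ± 0.38 SE). Nkg7, a granule protein of NK and cytotoxic T cells, stood at 0.642, 0.504 and 0.516 CPM for WT and 1.02, 0.259 and 0.706 CPM for KO (0.27 ± 0.42 SE, adjusted p = 0.871, edgeR). The 95% confidence intervals ran from -0.79 to 0.90 for Cd3e and from -0.68 to 1.22 for Nkg7.

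**Figure D3:**
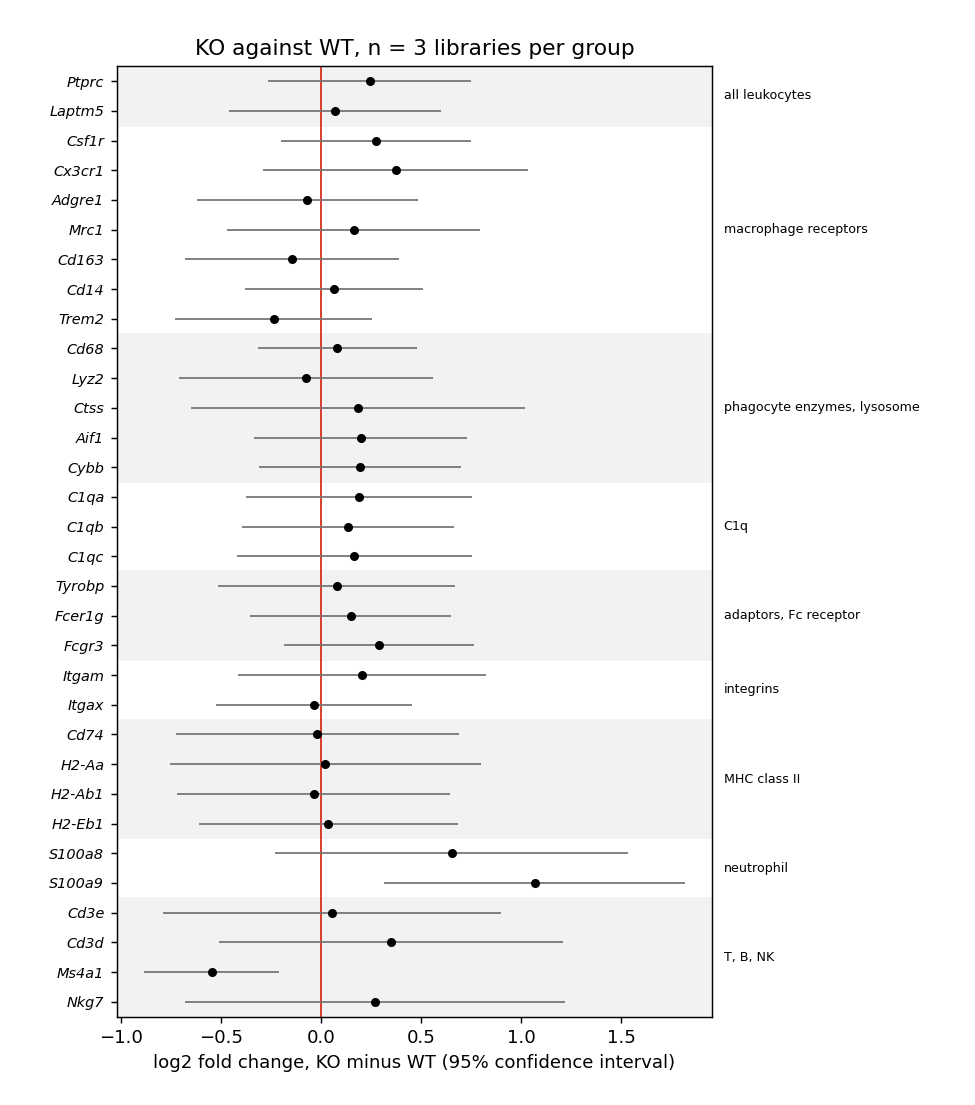
log2 fold change of each immune cell gene, KO minus WT, with its 95% confidence interval from edgeR (3 libraries per group; the vertical line marks 0). Intervals of 30 genes span 0; those of S100a9 (0.32 to 1.82) and Ms4a1 (-0.89 to -0.21) do not, and neither gene passed adjustment over all genes.

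Further genes of the same cells were read from the other marker lists. Of 112 further marker genes of macrophages, leukocytes in general, dendritic cells, neutrophils, T, B and NK cells and the class II pathway that could be tested, 0 passed (71 positive, median 0.08). With ligands and complement included, 0 of 137 passed in edgeR (12 at an unadjusted p under 0.05), 1 in limma-voom (Cxcl1) and 3 in DESeq2 (Cxcl1, Jchain and Lyve1). Of all genes tested, 9.16% had an unadjusted p under 0.05 in edgeR, and 0.466% passed in limma-voom and 1.16% in DESeq2. Without KO replicate 3, edgeR called 7, of which 6 were higher (Maf, Lyve1, Igkc, Jchain, Csf1 and Tgfb1) and Cxcl1 was lower. In that fit 2.26% of all genes tested were called, and 1.74% were called higher. Of 29 further macrophage genes, 15 were positive and 14 negative. Lyve1, a hyaluronan receptor of lymphatic vessels and some macrophages, stood at 6.03 ± 0.372 CPM for WT and 9.49 ± 2.06 CPM for KO (0.65 ± 0.16 SE, adjusted p = 0.242, edgeR). The transcription factor gene Maf stood at 49.1 ± 3.50 and 60.9 ± 7.72 CPM (adjusted p = 0.392).

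Of 22 general leukocyte genes, 18 were positive, with Itgal, an integrin of lymphocytes, at 2.51 ± 0.315 and 3.68 ± 1.04 CPM and Dock2 at 3.84 ± 0.127 and 4.67 ± 0.425 CPM. The 6 further class II pathway genes tested had a median of 0.07, and H2-Oa and H2-DMb2 stood under 1 CPM in each library. All 11 dendritic cell genes were negative (median -0.14), as were 8956 of the 18250 genes tested, and 0 of the 11 passed. Over these 11 genes the median log2 difference from the WT mean was 0.12, -0.07 and -0.42 in KO replicates 1 to 3. Among them Zbtb46, a transcription factor of classical dendritic cells, stood at 18.1 ± 0.718 CPM for WT and 15.8 ± 1.34 CPM for KO (-0.20 ± 0.09 SE, adjusted p = 0.562, edgeR), and the chemokine receptor gene Xcr1 at 0.509 ± 0.103 and 0.369 ± 0.105 CPM. Zbtb46 thus stood far above Xcr1, and which cells its RNA came from was not tested. Of 10 further neutrophil and monocyte genes tested, the cytokine gene Il1b stood at 0.420 ± 0.118 and 0.711 ± 0.373 CPM. The lipocalin gene Lcn2 stood at 11.7, 5.23 and 2.04 CPM (WT) and 3.39, 2.26 and 2.14 CPM (KO), with WT replicate 1 far above the rest.

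Of 15 further T cell genes 12 were positive (median 0.26), with the receptor constant region Trac at 0.421 ± 0.0306 and 0.673 ± 0.255 CPM. Jchain, the joining chain of secreted IgA and IgM, stood at 1.69, 2.79 and 2.14 CPM among WT and 6.46, 4.36 and 3.68 CPM among KO libraries. Each KO library was above each WT library, as in 7.68% of all genes tested (1.13 ± 0.26 SE, adjusted p = 0.214, edgeR). The immunoglobulin gene Ighd stood at 0.556 ± 0.228 and 0.856 ± 0.243 CPM. Among 9 NK cell genes, Gzma stood at 0.751 ± 0.0588 and 1.05 ± 0.376 CPM and Prf1 at 0.241 ± 0.0912 and 0.357 ± 0.047 CPM.

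Of the ligands that recruit or sustain these cells, 0 of 11 tested passed in edgeR with all libraries and the filter on low counts. Cxcl1, which attracts neutrophils, stood at 4.40, 3.48 and 5.39 CPM in WT, against 2.13, 1.65 and 1.68 CPM in KO. Each KO library was below each WT library, as in 7.89% of all genes tested. The log2 fold change of Cxcl1 was -1.28 ± 0.20 (SE, 95% interval -1.74 to -0.82, adjusted p = 0.0512, edgeR). Cxcl1 passed in DESeq2 (adjusted p = 7.1e-06) and limma-voom (0.0131). It also passed in edgeR with no filter (adjusted p = 1.3e-05) and without KO replicate 3 (0.00483). Over all alternative fits its adjusted p ran up to 0.291 (without WT replicate 3). Csf1, the ligand of CSF1R, stood at 9.46, 10.6 and 11.8 CPM (WT) and 17.4, 14.2 and 12.5 CPM (KO). Its groups did not overlap either, with KO above WT as in 7.68% of all genes tested. The difference (0.46 ± 0.14 SE, adjusted p = 0.35, edgeR) passed without KO replicate 3 (0.0223). Il34, the other ligand of CSF1R, stood at 7.84, 9.02 and 8.69 CPM among WT and 10.9, 10.7 and 8.08 CPM among KO libraries. Cx3cl1, the ligand of CX3CR1, stood at 39.4, 48.4 and 45.0 CPM in WT, against 43.7, 52.2 and 43.6 CPM in KO. The monocyte chemokine genes Ccl2 and Ccl7 were near 1 CPM or below.

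**Figure D4:**
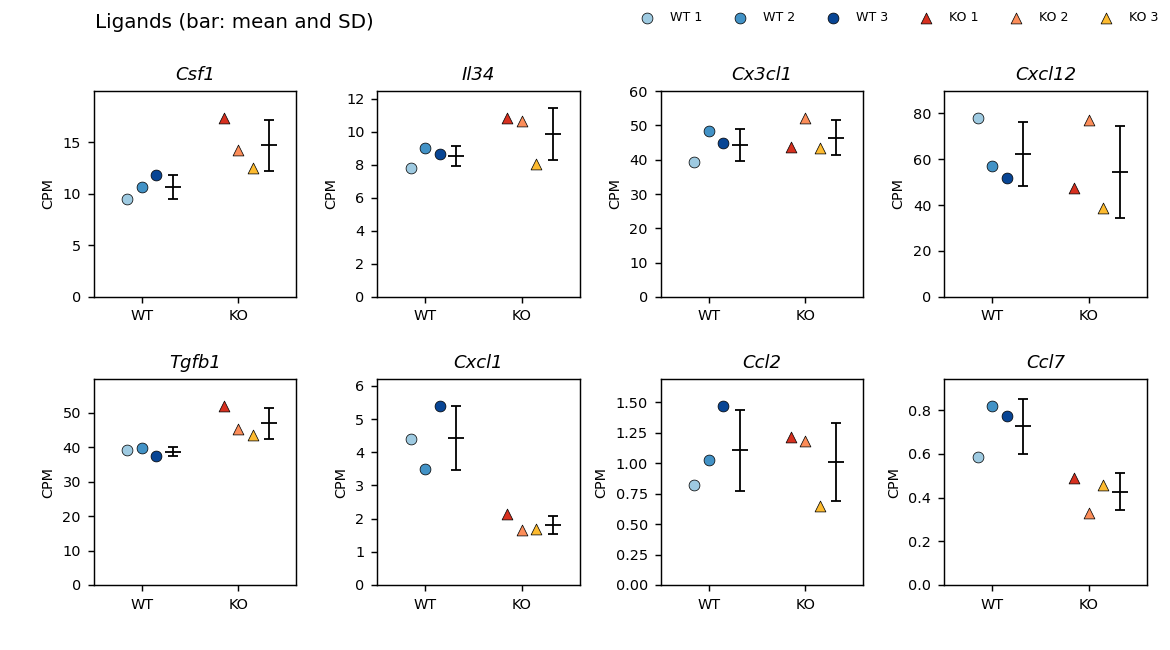
CPM of 8 ligands of immune cells in each library (circles WT, triangles KO), with the mean and SD of each group as a bar (n = 3). The groups do not overlap for Cxcl1 and Ccl7 (KO lower) or for Csf1 and Tgfb1 (KO higher). None of the 8 passed edgeR's test with all libraries and the filter on low counts. Of all genes tested, 15.6% had groups that do not overlap.

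In the complement list, 0 of 14 passed. Cd59a, an inhibitor of the membrane attack complex, stood at 30.1 ± 3.42 and 44.1 ± 10.8 CPM (0.55 ± 0.18 SE, adjusted p = 0.434, edgeR). Its groups did not overlap, as in 15.6% of all genes tested.

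Markers of several other cell types were also highest in KO replicate 1 and lowest in KO replicate 3, and those of others were not. Over the 26 genes of macrophages, leukocytes in general and antigen presentation, the median log2 difference from the WT mean was 0.52, 0.10 and -0.44 in KO replicates 1 to 3. For 12 endothelial genes it was 0.74, 0.25 and -0.29, and their summed levels were 221 to 263 CPM in WT and 395, 281 and 191 CPM in KO. For 9 smooth muscle and pericyte genes it was 0.41, 0.04 and -0.47. For 9 stromal fibroblast genes it was 0.13, -0.15 and -0.74, with WT replicate 3 above KO replicate 1 at 0.18. The 7 theca cell genes were high in KO replicate 1 but not low in KO replicate 3 (1.03, 0.16 and 0.53). The 8 red blood cell genes were above the WT mean in all KO libraries (1.95, 1.15 and 0.47), and the 10 oocyte genes below it (-0.38, -0.45 and -0.25). Among WT libraries 1 to 3 the endothelial medians (0.10, -0.18 and 0.08) did not follow the immune ones (-0.18, 0.03 and 0.15). The 12 granulosa cell genes stood at 0.08, 0.04 and 0.44, with summed levels of 11564 to 12946 CPM in WT and 13565, 12859 and 18723 CPM in KO. KO replicate 3 thus held the lowest summed level of endothelial, smooth muscle and stromal genes and the highest of granulosa genes. The granulosa list was mixed, with 9 positive and 3 negative log2 fold changes, from -1.01 to 1.29. In edgeR 1 of the 12 was called lower in KO, against 0.0932% of all genes tested. KO replicate 3 also stood apart in ovulatory genes such as Areg, an EGF-like growth factor, at 241 CPM against no more than 0.981 CPM in the other 5 libraries. The luteal-type genes Akr1c18, which encodes a progesterone-degrading enzyme, and Star, which encodes the cholesterol carrier of steroid synthesis, followed the KO order of the macrophage genes. Akr1c18 stood at 854, 454 and 67.6 CPM in KO replicates 1 to 3 and at 5.75 to 12.9 CPM in WT (adjusted p = 0.346, edgeR). Star stood at 1165, 760 and 617 CPM in KO and at 340.03 to 392 CPM in WT (adjusted p = 0.212). No defining endothelial gene was at 0. The part of tissue composition in the immune values was not tested.

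**Figure D5:**
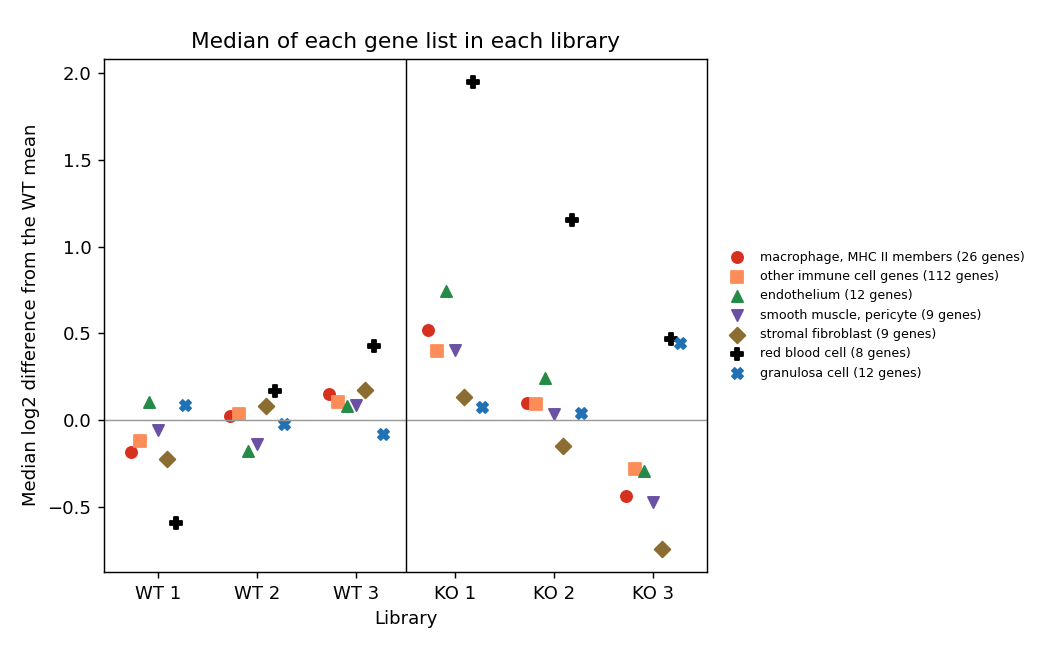
Median log2 difference from the WT mean of 7 gene lists in each library; each marker type is 1 list. In KO replicates 1 to 3 the macrophage and class II genes stand at 0.52, 0.10 and -0.44. Smooth muscle and pericyte genes (0.41, 0.04 and -0.47) and endothelial genes (0.74, 0.25 and -0.29) lie near them. Granulosa genes are highest in KO replicate 3 (0.44).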

How the data were processed

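RNA was sequenced as read pairs from 3 WT and 3 KO libraries. The submitters' processing notes list STAR 2.5.2b, Trimmomatic 0.36, Subread 1.5.2 with featureCounts, and the build GRCm38. The deposited values are raw whole-number counts per gene; no source used here gives the annotation release, strand setting or treatment of multi-mapping reads. Gene IDs were paired with symbols of GENCODE M21 (48970 of 49315 matched). Groups came from the labels.

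Counts were analysed in R 4.3.3 with edgeR 4.0.16: filterByExpr, TMM scaling, robust quasi-likelihood test of genotype over all genes kept, Benjamini-Hochberg adjustment, and calls at an adjusted p under 0.05. CPM use the TMM library size, so that 1 CPM is 42.5 to 51.4 counts. FPKM divide CPM by the gene length in the files. Differences per library use log2 CPM with a prior count of 2. The steps were tested on simulated data. Promoters came from RefSeq.

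The 32 genes and the other lists were chosen with earlier results of these data known. All 32 are named, with the 2 genes of smallest p in each other immune list, except for 2 that are not reported here; Cd79a, Cd79b, Spi1, Lyz1, Ly6g, Elane, Ltf, Csf3r, Timd4, Folr2, Slc11a1, Areg, Akr1c18, Star, Gm49368, Hmgxb3 and further ligands were chosen after their values were seen. Alternatives were RLE and upper-quartile scaling, raw-total CPM, DESeq2 1.42.0, limma-voom with sample quality weights (limma 3.58.1), other filters, a replicate block and leaving out each library. Lilrb4a and Ahsp were not analysed here.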

Additional observations from a re-analysis of the deposited data

How the results depend on the processing

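The finding that 0 of the 32 genes passed held under RLE and upper-quartile scaling, DESeq2, limma-voom, both other filters, the replicate block and with 5 of the 6 libraries left out in turn; the count over those 6 ranged from 0 to 2 (Csf1r and Cx3cr1 without KO replicate 3). The number of other immune genes called was 0 with all libraries, 3 in DESeq2 and 1 in limma-voom. With no filter it was 3 (Cxcl1, Jchain and Lyve1), and with 1 library left out it ranged from 0 to 7. The median of the 32 ranged from -0.13 (without KO replicate 1) to 0.33 (without KO replicate 3), and the KO over WT ratio of their summed level, 1.03 in full and 0.994 on raw totals, from 0.86 to 1.2 in the same fits. All genes called numbered 40 in full, 221 in DESeq2, 85 in limma-voom, 199 with no filter, 21 at a mean of at least 1 CPM and 8 to 421 with 1 library left out. In the fit with the replicate number as a block 15 genes and 0 of the 32 were called. Same-numbered deviations from the group means correlated at -0.0163, 0.0704 and -0.0348, and the other pairs at -0.0671 to 0.0591. With means of only 3 libraries per group this check cannot exclude a pairing, and the labels give only a shared number.

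Leaving out 1 library changed the sign of 23 of the 32 log2 fold changes in at least 1 of the 6 fits, none of them called in that fit or in the full one. The ranges were Ptprc from -0.0021 to 0.42, Laptm5 from -0.15 to 0.28, Adgre1 from -0.35 to 0.16, Mrc1 from -0.15 to 0.38, Cd163 from -0.39 to 0.027 and Cd14 from -0.14 to 0.25. They were Cd68 from -0.10 to 0.23, Lyz2 from -0.33 to 0.14, Ctss from -0.13 to 0.44, Cybb from -0.11 to 0.38, C1qa from -0.068 to 0.38 and C1qb from -0.10 to 0.34. Next came C1qc from -0.10 to 0.37, Tyrobp from -0.27 to 0.31, Fcer1g from -0.12 to 0.36, Itgam from -0.076 to 0.46, Itgax from -0.28 to 0.15 and Cd74 from -0.29 to 0.22. The rest were H2-Aa from -0.31 to 0.28, H2-Ab1 from -0.33 to 0.19, H2-Eb1 from -0.26 to 0.25, Cd3e from -0.22 to 0.37 and Nkg7 from -0.18 to 0.64. Other sign changes were H2-Aa under upper-quartile scaling (-0.00032) and with the replicate block (-0.049), H2-Eb1 with the replicate block (-0.017), and Cd74 (0.035) and Nkg7 (-0.53) in limma-voom. The cause of these changes was not tested. The T cell and neutrophil genes of the list and Nkg7 rest on 9 to 52 counts per library.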
